A study of Mus musculus with 27 samples.

Results

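Galactosylceramide is a sphingolipid with a single galactose on ceramide, and its making and breaking were followed here through 3 genes. The members were the mouse probe sets whose platform symbol is Ugt8a, Galc or Arsa, which gave 5 probe sets of 3 genes, out of 702 mouse probe sets of 573 genes. Ugt8a had 2 probe sets (BG060736_s_at and BC016885_at), Galc had 2 (NM_008079_s_at and NM_008079_at) and Arsa had 1 (AK004540_x_at). The study profiled 9 tissues from untreated wild-type C57BL/6 males of 6 to 8 weeks on a custom Affymetrix array of glycan-related genes, with 3 arrays per tissue and 27 in all. The tissues were kidney, brain, testis, liver, lung, lymph node, spleen, thymus and bone marrow, and every animal was of the same strain, sex and genotype. The sources do not state whether the 3 arrays of a tissue came from different animals. The p-values therefore compare arrays and are not known to measure a spread between animals.

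Ugt8a encodes the ceramide galactosyltransferase of the endoplasmic reticulum, which moves galactose from UDP-galactose onto ceramide. Galactosylceramide and its sulfated form, sulfatide, are the characteristic lipids of myelin, and sulfatide is also abundant in kidney, while in testis the same transferase makes the precursor of seminolipid, a sulfated lipid of male germ cells. Breakdown is lysosomal: arylsulfatase A, the product of Arsa, removes the sulfate from sulfatide and seminolipid, and galactosylceramidase, the product of Galc, then removes the galactose, and inherited loss of these enzymes causes metachromatic leukodystrophy and Krabbe disease.

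The start regions of the 3 genes are shown so that the synthetic gene can be compared with the 2 lysosomal ones at the sequence level. Each runs from 250 bases before to 50 bases after the RefSeq start on the minus strand of GRCm38.p6, 5′ to 3′, and all 3 symbols matched an entry. Capitals mark GGGCGG or its reverse complement CCGCCC in Ugt8a and Galc, and CACGTG, the core of the element that the lysosomal regulator TFEB binds, in Arsa.
Ugt8a, chr3:125938603-125938902: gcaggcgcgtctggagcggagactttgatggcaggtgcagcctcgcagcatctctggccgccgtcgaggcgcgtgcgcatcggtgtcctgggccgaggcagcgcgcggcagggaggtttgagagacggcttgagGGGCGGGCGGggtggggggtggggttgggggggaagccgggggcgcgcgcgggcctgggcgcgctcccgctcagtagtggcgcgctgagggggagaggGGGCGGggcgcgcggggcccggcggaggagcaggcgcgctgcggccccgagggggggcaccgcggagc
Galc, chr12:98259410-98259709: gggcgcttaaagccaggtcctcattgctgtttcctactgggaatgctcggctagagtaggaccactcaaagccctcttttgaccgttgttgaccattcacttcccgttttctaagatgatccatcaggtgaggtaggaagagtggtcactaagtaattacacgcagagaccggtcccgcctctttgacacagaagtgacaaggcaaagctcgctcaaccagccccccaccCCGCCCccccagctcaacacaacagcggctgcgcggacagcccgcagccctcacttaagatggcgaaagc
Arsa, chr15:89477375-89477674: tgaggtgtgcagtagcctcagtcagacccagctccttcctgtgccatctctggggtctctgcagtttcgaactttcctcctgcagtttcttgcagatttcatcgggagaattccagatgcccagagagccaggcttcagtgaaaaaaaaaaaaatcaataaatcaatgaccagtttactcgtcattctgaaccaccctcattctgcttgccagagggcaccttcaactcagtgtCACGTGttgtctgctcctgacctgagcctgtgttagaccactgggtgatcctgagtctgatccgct

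The Ugt8a window held 78.3% G and C, a value at the 98.4th percentile of 32851 mouse promoter windows of the same length, with 40 CpG dinucleotides. The Galc window held 55.7% G and C with 14 CpG, and the Arsa window held 49.7% with 5 CpG. Both strands were searched for each motif. GGGCGG occurred 3 times in Ugt8a, where 2 of the matches overlap, once in Galc and not in Arsa, and 35.66% of all windows hold it. CACGTG occurred in Arsa alone of the 3 windows, starting 16 bases before the start, and 7.15% of all windows hold it. GGGCGG was chosen after the sequences had been seen, and a match describes letters, not a bound site.

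Values are deposited intensities on a linear scale, in which the mouse probe sets had a median of 276.5. Array medians lay between 221.5 and 243.7, and the closest array to each of the 27, by correlation, was of the same tissue in 27 cases (median r across probe sets 0.978 within and 0.659 between tissues). Human probe sets on the same array, read here as a rough gauge of non-specific signal, had a median of 205.2 with a 95th percentile of 590.1. A fold with a level in that range on either side is a ratio of signals, not of transcript numbers. Levels of different probe sets have no common scale, so each gene was compared among tissues only. In whole tissue, fewer cells of a type and less transcript per cell cannot be told apart.

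All 5 probe sets were called among the 9 tissues, as were 367 of the 702 mouse probe sets (52.3%), where a call needs a Benjamini-Hochberg adjusted p under 0.05 from limma's moderated F test and a log2 range of tissue means of at least 1. The synthetic gene spanned more than the catabolic ones. Ugt8a ranged over 4.99 (31.8-fold, adjusted p = 1.35e-15) and 5.04 (33.0-fold, adjusted p = 3.23e-18) on the log2 scale in its 2 probe sets. These ranges end in tissues at background, and with a floor of 64 they were 10.7-fold and 8.24-fold, and with a floor of 1 BC016885_at gave 74.1-fold. The floor also removes spread between low arrays of BC016885_at, which lowers its p-value. Galc ranged over 1.92 (3.78-fold, adjusted p = 3.11e-10) and 2.14 (4.41-fold, adjusted p = 5.92e-12), and Arsa over 1.34 (2.53-fold, adjusted p = 5.70e-07). Put as a share of the 9 tissue means added together, kidney and brain held 47.9% and 35.7% of the signal of Ugt8a BG060736_s_at. Kidney and testis held 25.2% and 23.5% of Galc NM_008079_s_at, and testis held 21.3% of Arsa.

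**Figure D1:**
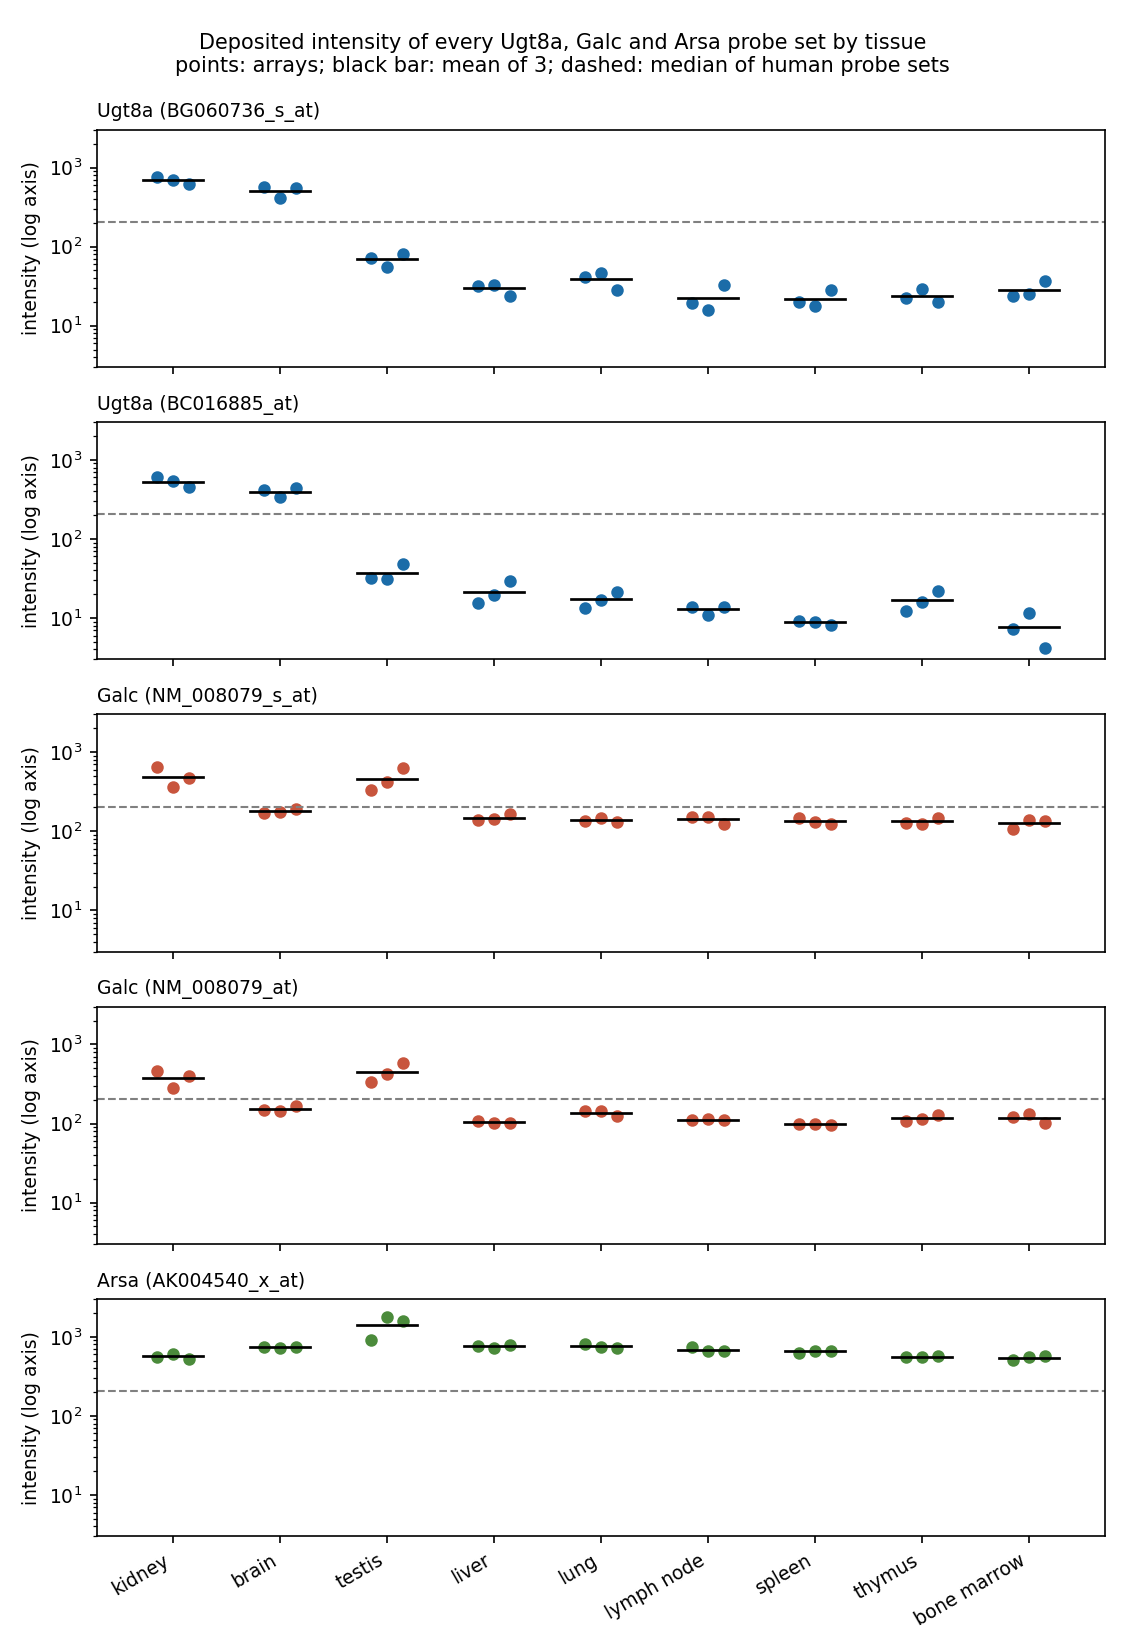
Deposited intensity (log axis) of each of the 5 probe sets on every array, by tissue, with a bar at the mean of 3 arrays and a dashed line at the human probe set median of 205.2. Ugt8a is above that line in kidney and brain only, Galc in kidney and testis only, and Arsa in every tissue, with its highest arrays in testis.

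Ugt8a was highest in kidney and brain. On BG060736_s_at the kidney arrays read 757.5, 685.9 and 613.8 (mean 685.7 ± 71.8 SD, n = 3) and the brain arrays 575.3, 414.5 and 544.1 (511.3 ± 85.3). The testis arrays read 72.4, 54.8 and 81.5 (69.6 ± 13.6), and the 18 arrays of the 6 other tissues lay between 15.8 and 46.3 with a median of 26.8. The kidney arrays lay above the brain arrays and both far above the rest. The testis arrays lay above those of the 6 other tissues, but all of these are under the human probe set median. The share of probe sets with tissues set apart in this way was not counted. BC016885_at gave the same arrangement, with 598.9, 543.9 and 450.3 in kidney, 414.4, 338.4 and 436.4 in brain, and 32.2, 31.1 and 48.7 in testis. Its 18 arrays of the other 6 tissues lay between 4.23 and 29.3 with a median of 13.5, and 13 of them were under 16, the floor to which lower values were raised before log2. All brain arrays on both probe sets, and the kidney arrays of BC016885_at other than the first, lie under the human 95th percentile of 590.1. Signal there is not separated from background by that gauge.

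Against the mean of the other 8 tissues, Ugt8a was higher in kidney by 3.99 ± 0.19 (SE) on the log2 scale (15.9-fold, limma adjusted p = 3.29e-14) and in brain by 3.50 ± 0.19 (11.3-fold, adjusted p = 1.65e-13) on BG060736_s_at. The same contrasts on BC016885_at were 4.23 ± 0.14 in kidney (18.7-fold, adjusted p = 8.45e-17) and 3.75 ± 0.14 in brain (13.5-fold, adjusted p = 1.89e-16). On BC016885_at the floor left bone marrow, lymph node and spleen with a log2 SD of 0, which lowers its SE and p-values. Calls of this direction were uncommon on the array: 6.55% of mouse probe sets were higher in kidney and 5.56% in brain. The calls held under every alternative that could be tested, but the folds depend on how the low tissues are set. With a floor of 64 they were 8.12-fold in kidney and 5.79-fold in brain on BG060736_s_at (6.57-fold and 4.73-fold on BC016885_at), and an offset of 16 in place of the floor gave 12.3-fold and 8.96-fold on BC016885_at. Taking the median of the 8 reference tissues instead of their mean gave 23.9-fold and 17.7-fold on BG060736_s_at, and 29.4-fold and 22.0-fold on BC016885_at.

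Kidney read higher than brain on both probe sets, without passing the test. The difference of brain minus kidney was -0.43 (95% interval -0.95 to 0.09, adjusted p = 0.181 over all 36 tissue pairs and probe sets) on BG060736_s_at. On BC016885_at it was -0.42 (-0.81 to -0.03, adjusted p = 0.0768). The arrays of these tissues did not overlap on either probe set, but how many other probe sets lacked overlap in this pair was not counted. In this pair 15.5% of mouse probe sets were called.

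Ugt8a in testis was under brain by 2.88 (adjusted p = 9.46e-10) and 3.43 (adjusted p = 2.28e-13) on the log2 scale, and it was called higher than 5 of the other 8 tissues and lower than 2 on each probe set. The step from testis to the next tissue down, 0.85 above lung (adjusted p = 0.00781) on BG060736_s_at and 0.80 above liver (adjusted p = 0.00117) on BC016885_at, missed the threshold on size. Since testis and the tissues under it all read below the human probe set median, their differences may not be differences of transcript. Against the mean of the other 8, which contains kidney and brain, testis gave 0.26 (adjusted p = 0.254) and -0.11 (adjusted p = 0.534). Among the 6 remaining tissues limma called 0 of 15 pairs for either probe set, with 3 at an unadjusted p under 0.05 on each. On BG060736_s_at those 3 were lung above lymph node, spleen and thymus. Their adjusted p was also under 0.05 (0.0111, 0.00977 and 0.0293), but not their size over the threshold. No such pair passed on adjusted p on BC016885_at, so the order of these tissues was not resolved. Over all 36 pairs, 19 were called for each Ugt8a probe set, where 17% of all pairs and probe sets together were called.

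**Figure D2:**
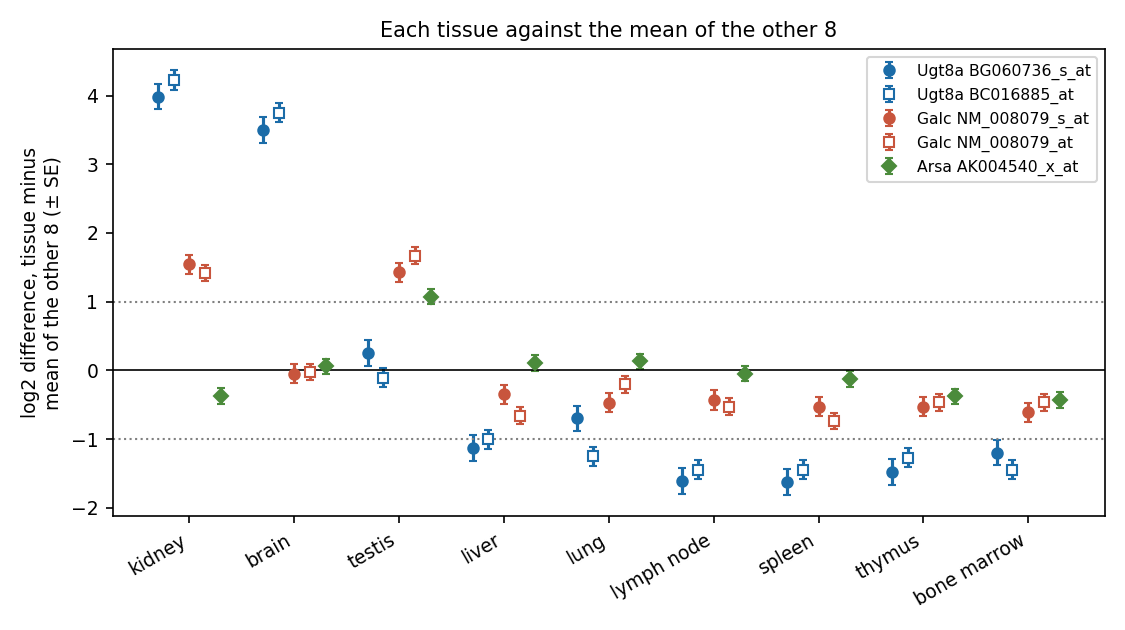
Log2 difference of each tissue from the mean of the other 8 for the 5 probe sets, with bars of 1 SE from limma and dotted lines at the size threshold of 1. Both Ugt8a probe sets stand between 3.50 and 4.23 in kidney and brain, both Galc probe sets between 1.42 and 1.67 in kidney and testis, and Arsa reaches 1.07 in testis.

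Galc shared the kidney peak of Ugt8a but had its other peak in testis, not in brain. On NM_008079_s_at the kidney arrays read 640.9, 360.2 and 468.4 (489.8 ± 141.6), the testis arrays 332.2, 418.0 and 623.1 (457.8 ± 149.5) and the brain arrays 172.5, 173.6 and 188.5 (178.2 ± 9.0). The 18 arrays of the other 6 tissues lay between 105.6 and 163.7 with a median of 136.8. Kidney and testis overlapped each other and lay wholly above all other tissues, and brain lay just above the rest. The number of other probe sets with such a separation was not counted. NM_008079_at read 459.9, 281.8 and 395.6 in kidney, 338.2, 418.1 and 581.6 in testis and 150.3, 144.4 and 165.3 in brain, against 96.8 to 145.7 in the other 6 tissues, so here brain touched the range of the rest. Every NM_008079_at array lies under the human 95th percentile of 590.1. So does every NM_008079_s_at array except kidney replicate 1 and testis replicate 3. Signal there is not separated from background by that gauge.

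In kidney Galc was higher than the mean of the other 8 by 1.55 ± 0.14 (2.92-fold, limma adjusted p = 1.81e-09) and 1.42 ± 0.12 (2.67-fold, adjusted p = 6.42e-10). In testis the differences were 1.43 ± 0.14 (2.69-fold, adjusted p = 5.87e-09) and 1.67 ± 0.12 (3.19-fold, adjusted p = 2.93e-11), where 2.99% of mouse probe sets were called higher. Brain stood at -0.05 ± 0.14 (adjusted p = 0.782) and -0.02 ± 0.12 (adjusted p = 0.883), whose sign turned under some alternative scalings. Brain was lower than kidney by a called margin in both probe sets (-1.42, adjusted p = 7.74e-07, and -1.28, adjusted p = 3.67e-07), and limma called 0 of its 6 pairs with the low tissues, with 3 and 5 at an unadjusted p under 0.05. On NM_008079_at brain was above every low tissue but lung at an adjusted p under 0.05 (0.00218 for spleen to 0.0493 for thymus), missing only the size threshold. On NM_008079_s_at that held for bone marrow alone (adjusted p = 0.0338). Each Galc probe set had 14 called pairs of 36, all of them kidney or testis against another tissue, where 17% of all pairs and probe sets together were called.

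The order of kidney and testis for Galc was not resolved. Kidney minus testis was 0.11 (adjusted p = 0.695) on NM_008079_s_at and -0.23 (adjusted p = 0.277) on NM_008079_at, and leaving out kidney replicate 1 or testis replicate 1 turned the first to -0.11 or -0.10. Galc also varied more between kidney and testis arrays than most probe sets did: the SD of its log2 values on NM_008079_s_at was at the 97.4th percentile of all probe sets in kidney and at percentile 95.01 in testis, but at the 19.7th in brain.

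The pairs of probe sets gave like patterns for each gene. For Ugt8a the 2 probe sets correlated at r = 0.974 over 27 arrays and 0.992 over 9 tissue means (Spearman rho 0.879), and for Galc at 0.964 and 0.975 (rho 0.6), as descriptions only. In Affymetrix naming an _s_at or _x_at probe set can hold probes shared with other transcripts. Arsa rests on a single _x_at set.

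Arsa read highest in testis. The testis arrays read 903.4, 1800.6 and 1580.2 (1428 ± 468), and the 24 arrays of the other 8 tissues lay between 510.1 and 819.4 with a median of 665.3. Every testis array lay above every other array, the first by the least. The number of other probe sets that set testis apart in this way was not counted. Among the others lung averaged 768.1 ± 45.7, brain 733.3 ± 10.9, kidney 563.4 ± 37.9 and bone marrow, the lowest, 542.4 ± 28.6. The bone marrow and thymus arrays and most kidney arrays lie under the human 95th percentile of 590.1, where signal is not separated from background by that gauge. Over all 36 pairs 17 had an adjusted p under 0.05 and 4 were called, where 17% of all pairs and probe sets together were called. Among the 6 tissues other than kidney, brain and testis limma called 0 of 15 pairs, with 5 at an unadjusted p under 0.05. Of those, lung and liver against bone marrow and against thymus also had an adjusted p under 0.05 (0.00839 to 0.0225).

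Testis exceeded the mean of the other 8 by 1.07 ± 0.11 (2.10-fold, limma adjusted p = 1.76e-08). That call rests on the size of 2 arrays: the difference fell under the threshold of 1 without testis replicate 2 (0.87) or replicate 3 (0.97). Over pairs, testis was called higher than kidney, spleen, thymus and bone marrow, the 4 called pairs, and stood 0.84 above lung (adjusted p = 5.73e-05). Kidney, one of the highest tissues for Ugt8a and Galc, was among the lowest for Arsa, at -0.37 ± 0.11 from the mean of the other 8 (adjusted p = 0.00786), a size that was not called. Brain stood at 0.06 (adjusted p = 0.706).

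The testis arrays also differed among themselves elsewhere. Their correlations with each other (0.935 to 0.968) included the lowest of any tissue, and the SD of log2 Arsa in testis was at the 96.9th percentile of all probe sets. St6galnac2, a sialyltransferase gene listed as a testis marker, read 1910 on testis replicate 1 and 4352 and 4905 on the others, so replicate 1 was low there as for Arsa and Galc. The other measured gene of that list, the O-glycosylation gene Galnt3, read between 1825 and 2025 on the 3 arrays. The part of cell composition in these differences was not tested.

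Synthesis was then set beside breakdown within each array, as the log2 difference between a gene pair (the probe set with the highest mean for each gene), since scaling by a constant cancels there. Only changes of these differences among tissues were read. Each tissue was compared with the 24 arrays of the other tissues by an exact two-sided permutation test, with Benjamini-Hochberg adjustment over 27 tests; the smallest p it allows is 0.000684.

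Ugt8a relative to Galc was highest in brain. The brain arrays read 1.74, 1.26 and 1.53, the kidney arrays 0.24, 0.93 and 0.39, and the testis arrays -2.20, -2.93 and -2.93. Brain lay above all other arrays, by 3.55 over their mean (exact permutation p = 0.000684, the smallest possible, adjusted p = 0.00615). With a floor of 64, under which most Ugt8a values of the other tissues lie, the difference was 2.59. The permutation shuffles single arrays, although arrays of the same tissue resemble each other (median r 0.978 within and 0.659 between tissues). Its p-values thus count the arrays of a tissue as separate evidence. Some tissue must be highest, and a test with tissues as units was not run. The same limit applies to every comparison of a tissue with the other arrays, in all the balances. Kidney lay 2.44 above the mean of the other arrays (adjusted p = 0.0677). Testis did not separate from the 6 low tissues, although its Galc was high.

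Ugt8a relative to Arsa was highest in kidney, at 0.44, 0.19 and 0.22, followed by brain at -0.37, -0.80 and -0.43. Kidney lay above all other arrays, by 4.36 over their mean (exact permutation p = 0.000684, adjusted p = 0.00615), and brain 3.44 above (adjusted p = 0.0677). With a floor of 64 the kidney difference was 3.39. The brain test includes kidney among the other arrays, and the kidney test includes brain.

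The breakdown genes also changed relative to each other. Galc relative to Arsa was highest in kidney, at 0.20, -0.74 and -0.17, above all other arrays and 1.92 over their mean (exact permutation adjusted p = 0.00615). Testis, where both genes had high arrays, read -1.44, -2.11 and -1.34, and overlapped brain at -2.11, -2.06 and -1.96. Lung was the lowest, 0.60 under the mean of the others on this scale (adjusted p = 0.0369), a call that was lost after quantile normalization and without any of its 3 arrays.

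Brain and kidney, the 2 tissues rich in Ugt8a, differed in all 3 balances without overlap. Brain minus kidney was 0.99 for Ugt8a relative to Galc, -0.81 for Ugt8a relative to Arsa and -1.80 for Galc relative to Arsa. Any 2 of these balances fix the third, so they are not 3 separate results. How often other gene pairs lacked overlap was not counted. With 3 arrays against 3 the exact permutation p was 0.1 in each, the smallest the design allows (adjusted p = 0.113 over 9 tests).

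**Figure D3:**
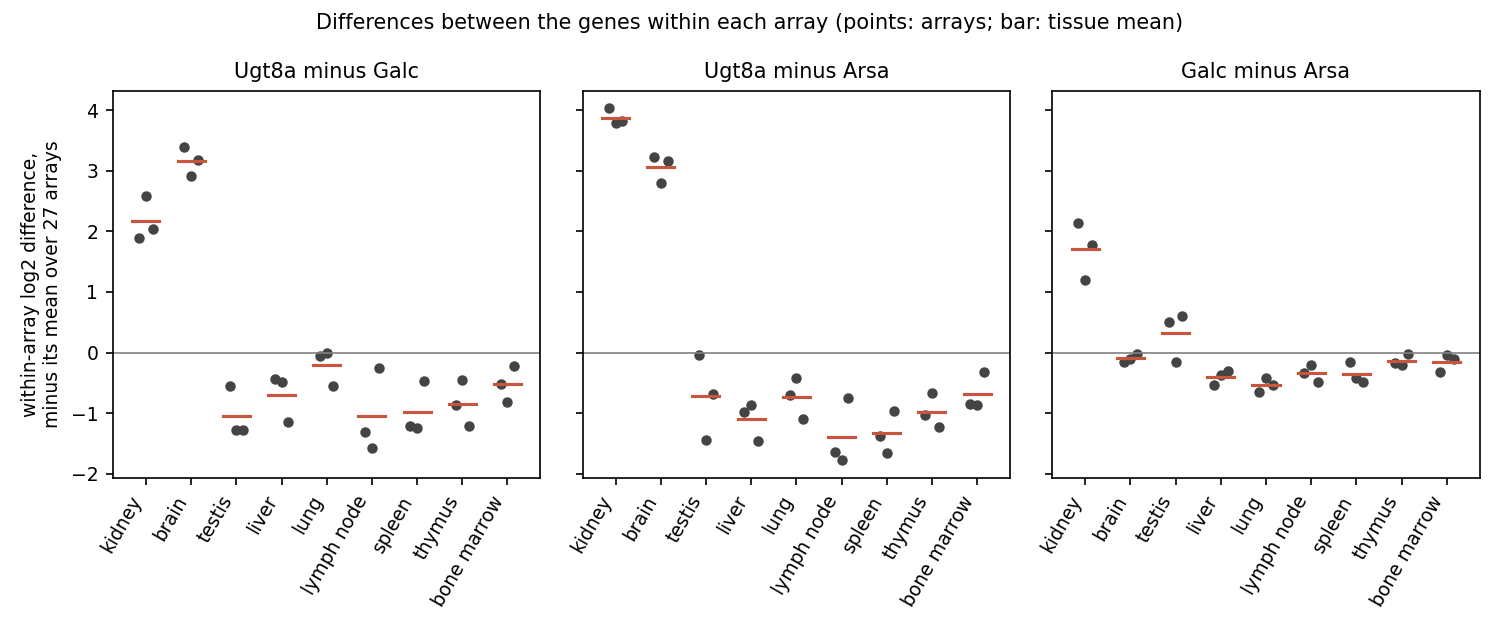
Log2 difference between 2 genes on each array, less its mean over the 27 arrays, by tissue, with bars at tissue means. Ugt8a minus Galc is highest on the 3 brain arrays, Ugt8a minus Arsa and Galc minus Arsa on the 3 kidney arrays.

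Over the 9 tissue means, Ugt8a and Galc correlated at r = 0.67 (rho 0.75), Galc and Arsa at 0.45 (rho 0.53) and Ugt8a and Arsa at 0.02 (rho 0.33), given as descriptions of 9 tissues from the same arrays. The genes most like each member over tissue means, among 286 genes called in the F test, were ranked by Pearson r. For Ugt8a they were Fut9, a fucosyltransferase of the Lewis x epitope (r = 0.93), the growth factor Mdk (0.89), B4gat1, a glucuronyltransferase of dystroglycan glycans (0.86), the neurotrophin receptor Ntrk2 (0.85) and the chemokine Cx3cl1 (0.82). Of these Ntrk2 was also first by rank correlation (rho 0.93), while Fut9, which like Ugt8a peaked in kidney, was 33rd (rho 0.5). Ntrk2 averaged only 107.3 in brain, its highest tissue, under the human probe set median of 205.2. Rank correlations with Ugt8a also rest on its low values, which have no reliable order. For Galc they were the UDP-N-acetylglucosamine transporter Slc35a3 (0.94), St6galnac2 (0.86), Galnt3 (0.84), the sulfotransferase Chst7 (0.79) and Mdk (0.76). For Arsa they were Ndst3 (0.90), Gfpt1 (0.88), Muc3 (0.87), Gcnt3 (0.86) and Mpi (0.82), all of which peaked in testis. The last 4 had rank correlations of 0.25, 0.30, 0.45 and 0.35, much lower than their r, and Galnt3 had one of 0.27 with Galc.

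Galc and Arsa were next read beside 21 other genes of glycan and sphingolipid breakdown from 3 lists, most of them lysosomal: 8 of sphingolipid breakdown, 4 sulfatases and 9 other glycosidases. The first list includes the sialidases Neu2 and Neu3, which act in the cytosol and at the cell surface, and Smpd1, which acts on sphingomyelin. In kidney limma called 4 of the 21 higher and 0 lower (13 and 4 at an unadjusted p under 0.05), where 6.55% and 6.7% of all mouse probe sets were called, with a median difference of 0.38 where all genes had a median of -0.06. The 4 were Neu1, a sialidase (2305 ± 288, 7.79-fold), Glb1, the beta-galactosidase of GM1 ganglioside (1365 ± 116, 3.48-fold), Galns, a sulfatase of keratan sulfate (981.0 ± 77.8, 3.35-fold), and Aga, which cleaves the N-glycan to asparagine link (482.9 ± 62.8, 2.35-fold). Kidney was the highest tissue for 7 of the 21 genes, Neu2 among them. Galc was thus 1 of 5 called genes among the 23 in kidney, and Arsa, at -0.37, was among those with a lower value there.

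In testis limma called 0 of the 21 higher and 4 lower (2 and 12 at an unadjusted p under 0.05). Of all mouse probe sets 2.99% were called higher and 13.4% lower, so 0 of 21 higher is near the share over all probe sets. The median was -0.44 (all genes -0.07), and 6 of the 21 values were above 0, while Galc and Arsa were both called higher. The 4 lower genes were Neu1 (4.29-fold), Gusb, Man2b1 and Manba, the last 3 named after their values were seen. Arsb, the sulfatase of dermatan sulfate, was the only one of the 21 with its highest mean in testis (650.5 ± 63.4, a difference of 0.55 that was not called).

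In brain 1 of the 21 was called higher and 4 lower, where 5.56% and 10.7% of all mouse probe sets were, with a median of -0.32 (all genes -0.07). Gaa, the acid alpha-glucosidase, was higher (1298 ± 98, 2.21-fold). Gm2a, the GM2 activator protein, Gusb, Man2b1 and Aga were lower, by 2.20-fold to 3.12-fold. Galc and Arsa stood at -0.05 and 0.06 in brain, above the median of the list.

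**Figure D4:**
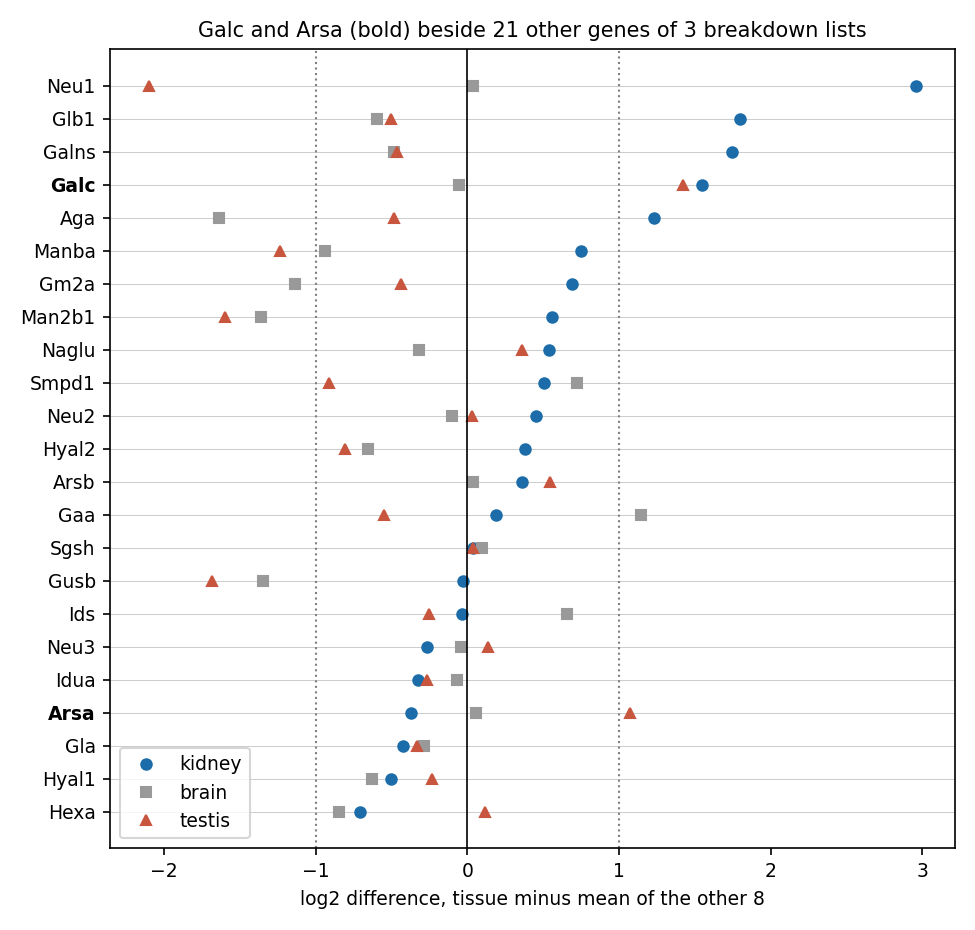
Log2 difference of kidney, brain and testis from the mean of the other 8 tissues for Galc, Arsa and 21 other breakdown genes (1 probe set per gene), ordered by the kidney value, with dotted lines at a size of 1. Galc is past the line in kidney and testis, Arsa in testis only, and no other gene is past the line on the higher side in testis.

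Further genes around galactosylceramide were covered in part. Of 12 listed partners, 2 were measured, the acid ceramidase Asah1 and Gm2a, and neither was called in kidney. Asah1, named after its values were seen, was lower in testis (2.06-fold, limma adjusted p = 3.31e-07), and Gm2a was lower in brain. The sulfotransferase Gal3st1, the saposin precursor Psap, the sulfatase-activating Sumf1, the hydroxylase Fa2h and the ceramide synthase Cers2 were not analysed here. The rival branch on ceramide starts with glucosylceramide. Its synthase Ugcg averaged 495.4 ± 54.5 in brain and 302.6 ± 35.9 in kidney, where it differed by -0.78 from the mean of the other 8 (adjusted p = 1.76e-07, not called by size). Of 10 measured genes of that branch, brain had 3 called higher, where 5.56% of all mouse probe sets were. They were B3galnt1, the globoside synthase (4.34-fold), St3gal2, a ganglioside sialyltransferase (2.56-fold), and B4galt6, a lactosylceramide synthase (2.55-fold). Kidney had 1 higher, B3galnt1 (2.15-fold), and 1 lower, the GM2 synthase B4galnt1 (2.90-fold), where 6.55% and 6.7% of all mouse probe sets were.

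Of 4 measured genes of UDP-galactose supply and related sugar nucleotides, kidney had 1 higher, the UDP-glucose dehydrogenase Ugdh (2.14-fold), brain had none and testis had 2 lower. Over all mouse probe sets 6.55% were called higher in kidney, 5.56% higher in brain and 13.4% lower in testis. Of 3 other measured UDP-glycosyltransferases, the family of Ugt8a, kidney had 2 higher, where 6.55% of all mouse probe sets were. These were the glucuronosyltransferases Ugt1a6a (6.41-fold) and Ugt2b5 (3.16-fold). Both were lower in brain (8.30-fold and 2.09-fold), where 10.7% of all mouse probe sets were. The reference mean holds liver, the highest tissue of both (5567 and 8716). Brain was the lowest tissue for Ugt1a6a (89.9), but brain Ugt2b5 (161.0) lay above lung, testis and thymus.

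Markers of the cell types that could carry these transcripts were few. Of 7 oligodendrocyte and myelin markers 1 was measured, Mag, the myelin-associated glycoprotein. It read 857.1, 933.1 and 1001 from the lowest to the highest brain array and between 400.8 and 604.4 on the other 24 arrays, 0.89 above the mean of the other 8 tissues (adjusted p = 1.05e-09) and so not called by size. Among 6 neuron and astrocyte markers 2 were called higher in brain, Cx3cl1 (10.1-fold) and Chga (3.49-fold), where 5.56% of all mouse probe sets were. No kidney epithelium marker of the 5 listed was measured. Of 4 macrophage and monocyte markers 3 were called lower in brain, 3 in kidney and 2 in testis, where 10.7%, 6.7% and 13.4% of all mouse probe sets were. Of 4 genes listed as testis markers 2 were measured, St6galnac2 and Galnt3. Both were called higher in testis and also in kidney (3.40-fold and 2.86-fold), the same tissues in which Galc was higher. The list was chosen with earlier results of these data known, so their testis level is no independent evidence of cell type. Both are also among the 5 genes most like Galc, so the shared tissues are not a separate result. Over all mouse probe sets 2.99% were called higher in testis and 6.55% in kidney. Whether cell composition sets the levels of Ugt8a, Galc or Arsa was not tested.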

How the data were processed

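Biotin-labelled total RNA was hybridised to a 1-colour custom Affymetrix array, per the labels. The authors deposited a linear intensity for each probe set on each array. How they summarised probes, corrected background and scaled arrays was not given in the sources used here. Samples were grouped by the tissue label. Intensities under 16 were raised to 16 (51 of 18954 mouse values, 14 of them from Ugt8a) and log2 was taken. limma 3.58.1 (R 4.3.3) was fitted to all 702 mouse probe sets with 1 coefficient per tissue. The F test, contrasts of a tissue with the unweighted average of the remaining 8, and the 36 tissue pairs were computed, with Benjamini-Hochberg adjustment within each contrast (over all pairs together for pairs). Calls needed adjusted p under 0.05 and a log2 size of 1. The number of arrays limits the precision.

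The members, lists and rules were chosen with earlier results of these data known. Named genes were the members, listed genes called in brain or kidney with a few set partners, and the 5 genes nearest each member by Pearson r; outside the members, a gene was read from its brightest probe set on average. On simulated data for kidney against the other 8 (702 probe sets), 100% of changes of 1.5, 2 and 3 and 0% of 0.5 were called. Of 502 unchanged probe sets 0 were called. The size threshold of 1 all but fixed the results for 0.5 and for unchanged probe sets. The simulation shifted kidney alone, in normal noise around 1 mean per probe set, so it does not measure false calls in these data. Alternatives were quantile normalization, median centring, a low-signal filter, other floors (64, and 1, chosen after seeing the data), an offset, 1 or the mean probe set per gene, eBayes with trend, array weights, the replicate block, a median reference and leaving out each array. No protein sequence was used here. Marker lists of hepatocyte, lung, endothelial, neutrophil, B cell, T cell and venule genes were counted only.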

Additional observations from a re-analysis of the deposited data

How the results depend on the processing

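Over 30 results and all alternatives, 949 values kept direction and call, 17 turned sign, 6 lost the call and 5 moved by more than the spread between arrays. Kidney and brain Ugt8a, kidney and testis Galc, and the brain or kidney excess in the 3 within-array balances kept their direction and call in each alternative with a test. No Ugt8a or Galc probe set passed the low-signal filter on the mean over all arrays, and BC016885_at and NM_008079_at have no value of their own with 1 or the mean probe set per gene.

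Against the median of the other 8 tissues, which has no test, Ugt8a BG060736_s_at gave 4.15 in brain, 4.58 in kidney and 1.26 in testis, and BC016885_at 4.46, 4.88 and 1.03. Testis Ugt8a also turned to -0.62 with a floor of 64 (BG060736_s_at) and to 0.22 with a floor of 1 (BC016885_at), and ranged from -0.32 to 0.00906 on BC016885_at when arrays were left out.

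Brain Galc, near 0, turned to 0.0058 and 0.050 (NM_008079_s_at and NM_008079_at) with quantile normalization, 0.0025 and 0.031 with median centring, 0.36 and 0.40 against the median reference, and, on NM_008079_at, 0.017 with array weights and -0.078 to 0.019 with arrays left out. Galc NM_008079_s_at in kidney minus testis turned to -0.095 with quantile normalization and -0.060 with the mean of probe sets, and ranged from -0.11 to 0.35 with arrays left out. Arsa in testis ranged from 0.87 to 1.37 with arrays left out, and was 1.62 after quantile normalization. Galc minus Arsa in lung was -0.48 after quantile normalization and -0.66 to -0.55 without each lung array. The causes were not tested.

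The F test called 258 probe sets when the lowest signals were left out, with fewer tested, and 398 after quantile normalization, beside 367. Arrays with the same title number had a median r of 0.021 between their deviations, against 0.014 for different numbers. Single same-number pairs ran from -0.37 to 0.58, so this cannot tell whether such arrays share an animal. With the number as a replicate block 367 probe sets were again called, and no call was lost. The 3.99 for kidney Ugt8a could not change there, since every tissue has each number once. Low Ugt8a values lie under the human probe set median and have no reliable order.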

Other observations

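The human probe sets of the same genes, on the same arrays, did not follow the mouse pattern. UGT8 read between 115.1 and 169.8 over the 27 arrays, with a log2 range of tissue means of 0.23 (limma F test over human probe sets, adjusted p = 0.201). GALC read between 67.4 and 127.6 (range 0.42, adjusted p = 0.165) and ARSA between 280.0 and 397.4 (range 0.29, adjusted p = 0.0888). None was called, where 61 of 839 human probe sets were (7.27%).

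The log2 difference of Ugt8a BG060736_s_at minus BC016885_at was 0.37 ± 0.06 (SD, n = 3) in kidney and 0.36 ± 0.10 in brain. In the other 7 tissues it lay between 0.40 and 1.08. Values of BC016885_at raised to the floor set part of it there, except in testis (0.91), where no value was under the floor. For Galc, NM_008079_s_at minus NM_008079_at was 0.36 ± 0.12 in kidney and 0.02 ± 0.07 in testis, so that the 2 probe sets set these tissues in opposite order.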
